A study of Mus musculus with 4 samples.

Results

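Malat1, Neat1, Gas5, Snhg1, Snhg12, Epb41l4aos, Kcnq1ot1 and Mirt1 are long noncoding RNAs, a class of transcripts that are not translated into a stable protein. They were followed in C2C12 cells, an established line of mouse muscle precursor cells (myoblasts). The 8 genes were taken by name, which leaves 8 of the 55416 annotated genes. Mirt1 was chosen by its measured level, which was higher with K97E lamin A than with wild-type lamin A, so its difference between the groups is given as a description and was not tested. The other 7 were chosen as RNAs known to act in the nucleus or to carry small nucleolar RNAs (snoRNAs) in their introns.

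RNA was sequenced from 4 libraries. The K97E group holds 2 libraries of C2C12 cells transfected with K97E lamin A, and the WT group holds 2 libraries of C2C12 cells transfected with wild-type lamin A. K97E is a change of lysine to glutamate in lamin A, a structural protein of the nuclear lamina, and the title of the study names dilated cardiomyopathy. Both groups received 3 µg of DNA through a lipid reagent and were harvested 24 h later. All 4 libraries therefore come from transfected cells, no untransfected cells are included, the promoter and species of the transfected lamin A are not given in the labels, and the cells keep their own Lmna gene. Lmna was at 659.7 and 629 TPM (transcripts per 1000000 transcripts, a level corrected for length and library size) in K97E cells, against 558 and 596 TPM in WT cells, which cannot tell mutant from wild-type transcripts. The labels call the libraries biological replicates of 1 cell line. The p-values below measure only the spread between these libraries.

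Malat1 is retained in nuclear speckles, which store splicing factors. Neat1 is the scaffold of paraspeckles: its long form builds the body and its short form ends early at a polyadenylation signal. Gas5, Snhg1, Snhg12 and Epb41l4aos are spliced host genes. Their introns, for Epb41l4aos those of its human counterpart, release snoRNAs that guide chemical modification of ribosomal and other RNAs, and the spliced exons of Gas5 and Snhg1 are degraded by nonsense-mediated decay when they are translated. Kcnq1ot1 is transcribed from the paternal allele across an imprinted domain and silences neighbouring genes on that allele in cis. Mirt1 was named in mouse heart as a transcript related to myocardial infarction.

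Sequences of these RNAs are shown in 3 groups: from 3′ ends, from start sites and from an exon boundary inside Mirt1. Malat1 and the long form of Neat1 carry no poly(A) tail in their mature form: RNase P cuts behind a genomically encoded A-rich tract, which pairs with 2 upstream U-rich stretches. The windows below are from the GENCODE M21 transcripts, in the letters of DNA, with the U-rich stretches TTTCTTTT and TTTTGCTTTT and the tract AAAAGCAAAA in capitals; the Malat1 window covers bases 6582 to 6691 of ENSMUST00000172812 (6983 bases) and the Neat1 window covers bases 20662 to 20771, the last of ENSMUST00000173672. The short form of Neat1 (ENSMUST00000174287, last 60 bases) is shown for contrast, with its AATAAA polyadenylation signal in capitals.
Malat1: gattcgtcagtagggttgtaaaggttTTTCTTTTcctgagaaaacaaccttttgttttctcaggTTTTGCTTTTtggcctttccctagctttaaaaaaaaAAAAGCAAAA
Neat1 long form: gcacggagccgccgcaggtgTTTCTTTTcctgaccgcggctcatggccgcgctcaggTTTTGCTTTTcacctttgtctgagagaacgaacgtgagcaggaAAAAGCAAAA
Neat1 short form: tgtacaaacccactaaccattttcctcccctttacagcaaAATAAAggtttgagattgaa

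The search ran on the transcribed strand, and the capitals of a window do not overlap each other. Among the last 110 bases of 138029 GENCODE transcripts, TTTCTTTT was found in 1.30%, TTTTGCTTTT in 0.0949%, AAAAGCAAAA in 0.129% and AATAAA in 29.4%. The annotated Malat1 transcript runs on for 292 bases after the A-rich tract, a stretch that holds the tRNA-like RNA released by the RNase P cut, whereas the annotated long form of Neat1 ends at its tract.

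Host genes of snoRNAs often start at a C within a pyrimidine run, the terminal oligopyrimidine feature that they share with ribosomal protein genes. The windows below run from 30 bases before the RefSeq start to 30 bases from it onward (GRCm38.p6), with the unbroken run of C and T across the start base in capitals. The positions are chr1:161035136-161035195 on the plus strand for the second of 2 Gas5 starts, chr19:8723457-8723516 on the plus strand for Snhg1 and chr4:132308648-132308707 on the plus strand for Snhg12.
Gas5: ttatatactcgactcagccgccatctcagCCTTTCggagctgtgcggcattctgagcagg
Snhg1: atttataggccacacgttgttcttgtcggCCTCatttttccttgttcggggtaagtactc
Snhg12: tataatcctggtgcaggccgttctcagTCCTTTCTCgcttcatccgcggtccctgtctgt

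Each run began before the RefSeq start base, which was T in Snhg12 and C in Gas5 and Snhg1. Read on the transcribed strand, the whole run was 9 bases in Snhg12, 6 in Gas5 and 4 in Snhg1. Runs at least that long were found at 3.03%, 7.25% and 14.0% of 32851 RefSeq mouse promoters. It was 2 bases in Malat1 and 0 bases at the other Gas5 start, in Kcnq1ot1 and in Mirt1. The RefSeq promoter table matched 6 of the 8 genes.

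The third group is from Mirt1, since its higher value in K97E cells turned on the long exon that holds this boundary. The stretch covers bases 381 to 580 of ENSMUST00000180667 (GENCODE M21). The lower-case letters are the 95 bases that a second Mirt1 form, ENSMUST00000180489, also has as an exon, and the capitals are the start of the 1236 bases by which ENSMUST00000180667 extends that exon.
Mirt1: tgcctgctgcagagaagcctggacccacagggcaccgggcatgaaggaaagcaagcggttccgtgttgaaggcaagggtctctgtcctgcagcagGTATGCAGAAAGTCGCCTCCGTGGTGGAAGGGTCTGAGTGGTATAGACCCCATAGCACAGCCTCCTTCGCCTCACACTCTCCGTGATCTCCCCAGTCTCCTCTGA

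Estimated reads, in units of 1000000, came to 116 and 108 in K97E libraries, against 89.6 and 106 in WT libraries, and between 14463 and 14684 genes had at least 1 TPM. The 2 WT libraries correlated least with each other (Pearson r of log2 levels across genes 0.985, against 0.991 for the K97E pair and 0.987 to 0.989 between groups). Of 8 myoblast markers 7 averaged at least 0.5 TPM, with Vgll2 at 0, and their summed level was 579 and 566 TPM in K97E cells against 582 and 656 TPM in WT cells. Leukocyte markers summed to 7.49 and 5.01 TPM in K97E cells and 5.08 and 7.86 TPM in WT cells. Of these 8, 2 had a mean of 0.5 TPM or more (Cd68 and Cd163), with Adgre1 and Cd3e at 0. Epithelial markers summed to at most 0.368 TPM in any library, with Cdh1 and Cldn3 at 0. Of 6 endothelial markers 2 had a mean of 0.5 TPM or more (Cdh5 and Flt1), with Kdr and Tie1 at 0. The 6 summed to 20.9 and 22.1 TPM in K97E cells and 24.9 and 22.1 TPM in WT cells, mostly from Cdh5. Fibroblast markers (3 of 6: Pdgfra, Pdgfrb and Dcn, with Lum at 0) summed to 103.6 and 110.9 TPM in K97E cells and 104.4 and 95.2 TPM in WT cells. Neural markers (2 of 6: Tubb3 and Mbp, with Sox10 at 0) summed to 8.26 and 6.44 TPM in K97E cells and 5.15 and 7.58 TPM in WT cells.

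On the TPM scale the order of the means was Malat1, Neat1, Snhg1, Gas5, Snhg12, Epb41l4aos, Mirt1 and Kcnq1ot1. Over the 4 libraries the ranges of Snhg12 (29.3 to 34.0 TPM) and Epb41l4aos (24.5 to 30.4 TPM) overlapped, and no other neighbours in that order did.

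**Figure D1:**
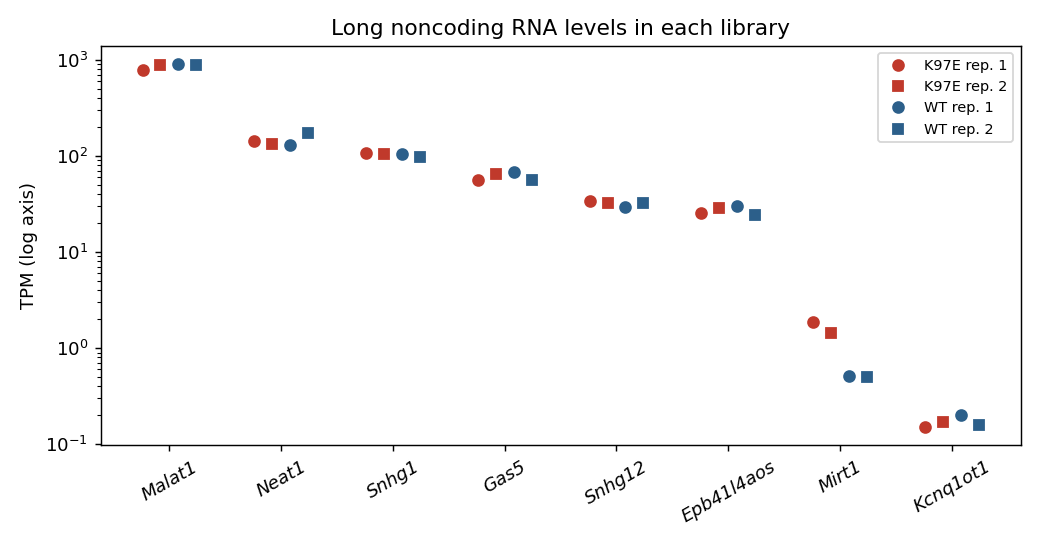
Level of each long noncoding RNA in each library, in TPM on a log axis; each point is 1 library, with circles for replicate 1 and squares for replicate 2. The red K97E points lie among or beside the blue WT points for all genes except Mirt1, where K97E libraries were at 1.85 and 1.44 TPM and WT libraries at 0.510 and 0.496 TPM.

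None of the 6 RNAs that were abundant enough to test, Mirt1 left aside, passed the test of a difference between K97E and WT cells. The test was limma on log2(scaled TPM + 0.5) over 16304 genes with a mean of at least 0.5 TPM, with Benjamini-Hochberg adjustment. Of the 6, 0 passed an adjusted p of 0.05, where 0.00613% of all tested genes did (1 gene), and 0 had an unadjusted p under 0.05, where 3.68% of all tested genes did (1.14% higher and 2.54% lower in K97E cells). Their log2 fold changes (K97E minus WT) were between -0.18 and 0.04, 2 positive and 4 negative, with a median of -0.08, against -0.0017 over all tested genes. The unadjusted p-values of limma ran from 0.290 to 0.787 and the adjusted ones from 0.965 to 0.988. For 5 of the 6 the difference between the groups was smaller than the gap between the 2 WT libraries. The exception was Malat1, whose 2 K97E libraries were further apart than the groups.

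**Figure D2:**
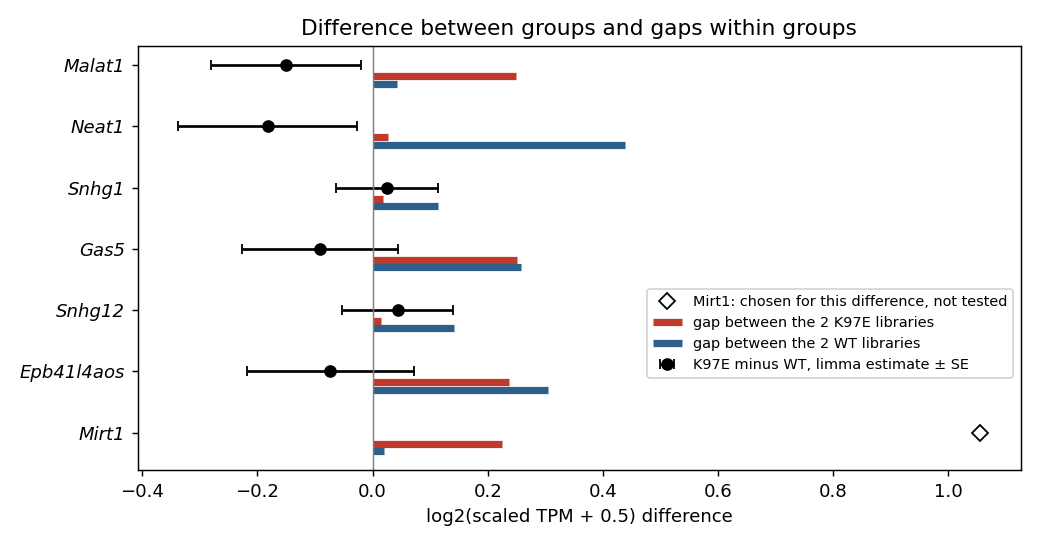
Difference between K97E and WT cells in log2(scaled TPM + 0.5), with black points and bars for the limma estimate ± SE, beside the gap between the 2 libraries of each group (red K97E, blue WT). For Neat1 the difference is -0.18 and the gap between WT libraries is 0.44; the open symbol of Mirt1 at 1.06 is a description, since that gene was chosen for it.

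Malat1 (ENSMUSG00000092341), at chr19:5845718-5852700 on the minus strand of GRCm39, was the most abundant of the 8. It was at 784 and 890.3 TPM in K97E cells, against 903 and 878 TPM in WT cells. The first K97E library was the lowest of the 4, and the groups overlapped. The mean was 837 ± 75.4 TPM in K97E cells and 890.5 ± 18.3 TPM in WT cells (SD, n = 2 each), with a log2 fold change of -0.15 (SE 0.13, limma adjusted p = 0.965). That value rested on K97E replicate 1: it was -0.026 without that library and -0.27 without K97E replicate 2. After scaling for library composition the values were 751 and 892 in K97E cells, against 922 and 895 in WT cells, which no longer overlapped. Such separation was found for 33.1% of all tested genes on the scaled values (16.3% higher and 16.8% lower in K97E cells) and for 1 of these 6 RNAs.

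Malat1 ranked 153 by mean TPM among the tested genes. Its reads took 0.250% and 0.288% of the bases credited to transcripts in K97E libraries and 0.298% and 0.286% in WT libraries. Nearly all of its level was credited to the single-exon form ENSMUST00000172812, whose 3′ tract is shown above. Mature Malat1 carries no poly(A) tail, and how fully the libraries captured such RNA was not tested.

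Neat1 (ENSMUSG00000092274, chr19:5874736-5895506, minus strand) lies 22036 bases from Malat1. It was at 142 and 133 TPM in K97E cells, against 129 and 175 TPM in WT cells. The WT libraries held both the lowest and the highest TPM, so the groups overlapped completely on that scale. Neat1 reads took 0.0696% and 0.0648% of the bases credited to transcripts in K97E libraries. In WT libraries they took 0.0772% and 0.0799%, so the groups did not overlap on that share. How many genes separate on that share was not computed. The mean was 138 ± 6.16 TPM in K97E cells and 152 ± 32.5 TPM in WT cells (SD, n = 2 each), with a log2 fold change of -0.18 (SE 0.16, limma adjusted p = 0.965). The value depended on which WT library was kept: without WT replicate 1 the log2 fold change was -0.40 (limma unadjusted p = 0.0068, adjusted p = 0.778), and without WT replicate 2 it was 0.04.

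The short and long forms of Neat1 were credited with similar levels. The mature long form carries no poly(A) tail, and how fully the libraries captured such RNA was not tested. The short form was at 73.8 and 71.9 TPM in K97E cells, against 54.3 and 100.9 TPM in WT cells. The long form, which builds paraspeckles, was at 62.4 and 56.8 TPM in K97E cells, against 70.5 and 67.6 TPM in WT cells. The long form was thus lower in both K97E libraries than in either WT library, while the short form was spread most widely within WT. Separation of this kind in either direction, on scaled values, was found for 33.6% of the 38950 transcripts with a mean of at least 0.5 TPM. The short form made up 52.0% and 53.9% of the gene in K97E cells, against 42.2% and 57.7% in WT cells, and the shares overlapped (difference 2.99 percentage points, two-sided exact permutation p = 1.0, where 2 libraries against 2 cannot go below 0.333). The short form lies wholly within the long form, so the division between them is the estimate of the authors' program.

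Frmd8, a membrane-associated adaptor gene, lies 4224 bases beyond Neat1. It was at 44.5 and 37.9 TPM in K97E cells and 28.8 and 39.4 TPM in WT cells, with WT replicate 1 lowest as for Neat1 on TPM, and the groups overlapped (log2 fold change 0.23, SE 0.17, limma adjusted p = 0.965).

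The proteins of the bodies that these RNAs belong to did not pass the test either. Of 16 paraspeckle protein genes, all tested, 0 were called higher and 0 lower, with 6 positive and 10 negative log2 fold changes and a median of -0.04. Rbm14, a coactivator needed for paraspeckle assembly, was at 41.5 and 41.8 TPM in K97E cells and 36.8 and 35.7 TPM in WT cells (log2 fold change 0.14). Of 18 genes for nuclear speckle and splicing proteins, 0 were called in either direction, 3 log2 fold changes were positive and 15 negative, and the median was -0.10. Clk1, a kinase that phosphorylates SR splicing factors, was the only one of the 18 with an unadjusted p under 0.05. It was at 112 and 99.8 TPM in K97E cells and 125 and 116 TPM in WT cells, with a log2 fold change of -0.24 (limma unadjusted p = 0.043, adjusted p = 0.965). Srsf5, an SR splicing factor, was at 209 and 204 TPM in K97E cells and 261 and 205 TPM in WT cells (-0.22). Of 10 tested genes for enzymes that trim tRNA ends, the class of enzymes that cut Malat1, 0 were called, 8 were positive and 2 negative, and the median was 0.09. Pop7 and Pop5, subunits of RNase P, had the smallest p-values, with log2 fold changes of 0.20 and 0.14.

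Gas5 (ENSMUSG00000053332, chr1:160861992-160866109, plus strand) was at 56.6 and 64.5 TPM in K97E cells, against 67.7 and 56.5 TPM in WT cells. Each group held a high and a low library, and the groups overlapped. The mean was 60.6 ± 5.58 TPM in K97E cells and 62.1 ± 7.91 TPM in WT cells (SD, n = 2 each), with a log2 fold change of -0.09 (SE 0.14, limma adjusted p = 0.965).

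Of 25 annotated Gas5 forms, 7 averaged at least 1 TPM and 6 were at 0 in all libraries. The most abundant, ENSMUST00000161229 (2556 bases, 4 exons), was at 19.8 and 21.1 TPM in K97E cells and 23.6 and 20.4 TPM in WT cells, or 35.0% and 32.7% of the gene in K97E cells and 34.8% and 36.0% in WT cells. ENSMUST00000159153, with 9 exons in 872 bases, was at 14.5 and 15.9 TPM in K97E cells and 19.1 and 14.0 TPM in WT cells. A form with 10 exons, ENSMUST00000162289, was at 4.51 and 4.58 TPM in K97E cells and 3.31 and 2.82 TPM in WT cells, higher in both K97E libraries. ENSMUST00000160516 was also higher in both, at 3.01 and 3.42 TPM against 2.46 and 1.39 TPM in WT cells. ENSMUST00000160551 was lower in both, at 0.603 and 1.24 TPM against 1.56 and 2.42 TPM in WT cells. Of all transcripts with a mean of at least 0.5 TPM, 15.2% were separated higher and 18.3% lower in K97E cells on scaled values. GENCODE M21 gives the biotype retained intron to 20 of the 25 forms, and these held 99.9% and 99.8% of the level in K97E cells and 99.5% and 98.8% in WT cells, without overlap (two-sided exact permutation p = 0.333, the smallest that 2 libraries against 2 allow). Forms with 9 or 10 exons are among them, so the biotype does not separate spliced from unspliced RNA here.

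Snhg1 (ENSMUSG00000108414, chr19:8700839-8703807, plus strand) was at 108 and 104.9 TPM in K97E cells, against 104.7 and 96.8 TPM in WT cells. Both K97E libraries lay just above both WT libraries on TPM, as did 25.9% of all tested genes on that scale (9.72% lay below and 35.6% were separated in either direction), and the groups overlapped after scaling. The mean was 107 ± 2.41 TPM in K97E cells and 100.7 ± 5.60 TPM in WT cells (SD, n = 2 each), with a log2 fold change of 0.03 (SE 0.09, limma adjusted p = 0.988).

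The level of Snhg1 was steady while the forms it was credited to were not. The form ENSMUST00000206155 (605 bases, 10 exons) was at 49.8 and 45.3 TPM in K97E cells, against 51.0 and 24.9 TPM in WT cells, and WT replicate 2 stood alone. Its share was 45.9% and 43.2% in K97E cells and 48.7% and 25.8% in WT cells (difference 7.32 percentage points, two-sided exact permutation p = 1.0). In WT replicate 2 other forms were higher instead: ENSMUST00000205825 was at 2.22 and 3.96 TPM in K97E cells and 0.54 and 9.62 TPM in WT cells, and ENSMUST00000205909 was at 8.79 and 5.11 TPM in K97E cells and 2.99 and 11.0 TPM in WT cells. Forms with the biotype retained intron (14 of 18) held 43.7% and 48.2% in K97E cells and 47.9% and 52.4% in WT cells (two-sided exact permutation p = 0.667).

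Snhg12 (ENSMUSG00000086290, chr4:132035934-132038335, plus strand) was at 34.0 and 32.2 TPM in K97E cells, against 29.3 and 32.4 TPM in WT cells. WT replicate 1 was the lowest, and the groups overlapped. The mean was 33.1 ± 1.29 TPM in K97E cells and 30.9 ± 2.18 TPM in WT cells (SD, n = 2 each), with a log2 fold change of 0.04 (SE 0.10, limma adjusted p = 0.978). Among its 10 forms, ENSMUST00000232301 (1538 bases) was at 10.0 and 8.13 TPM in K97E cells and 9.41 and 7.34 TPM in WT cells. ENSMUST00000232260 (896 bases) was at 5.51 and 7.33 TPM in K97E cells and 3.09 and 3.10 TPM in WT cells, 2.07 times as high on average, while ENSMUST00000126380 (1213 bases) was at 1.99 and 1.49 TPM in K97E cells and 2.13 and 4.72 TPM in WT cells. Across the genes, 29 forms from 6 of them had a mean of at least 1 TPM. Of these, 9 did not overlap between the groups on scaled values (31.0%), 3 higher and 6 lower in K97E cells. Among all 38950 transcripts with a mean of at least 0.5 TPM, a lower minimum, the share was 33.6%.

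**Figure D3:**
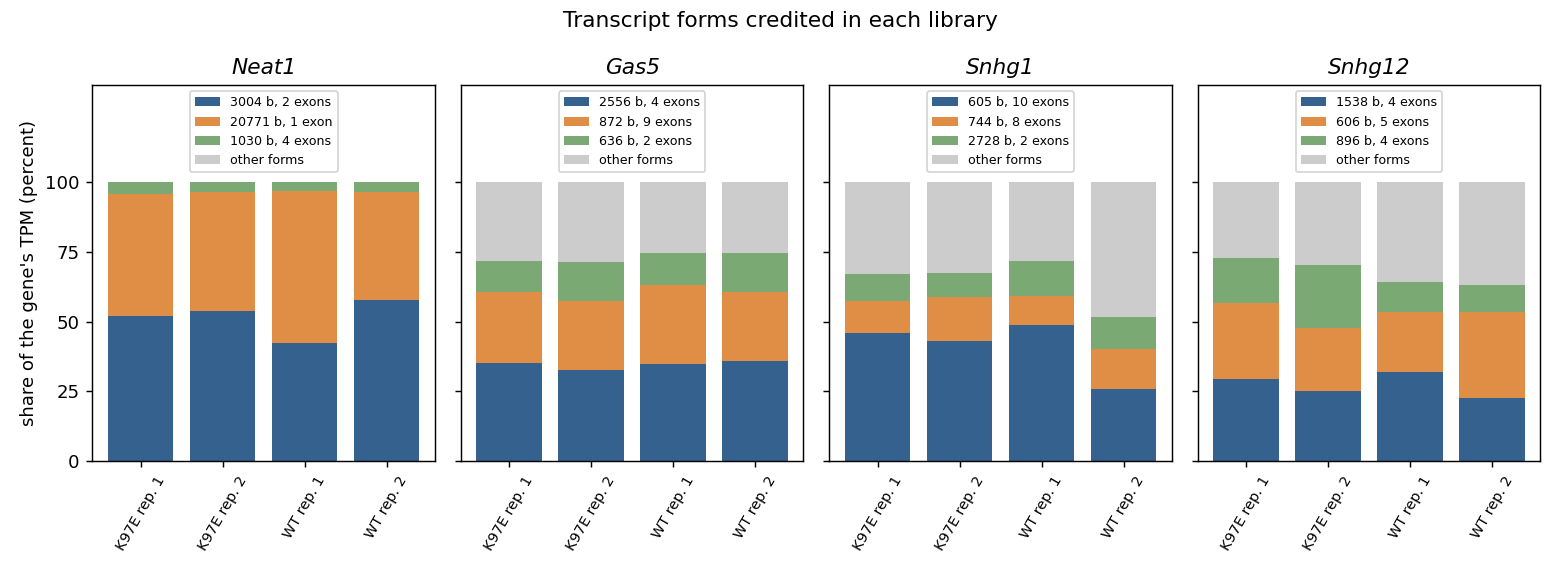
Share of each gene's TPM credited to its 3 most abundant forms and to the rest, in each library, with the forms named by length in bases (b) and number of exons. The shares of the top Neat1 form (42.2% in WT replicate 1, 57.7% in WT replicate 2) and of the top Snhg1 form (48.7% and 25.8%) differ more between the WT libraries than between the K97E libraries.

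Epb41l4aos (ENSMUSG00000087590, chr18:33927945-33929039, plus strand) lies tail to tail with Epb41l4a, a cytoskeletal gene of the band-4.1 family on the opposite strand, 341 bases away. It was at 25.4 and 28.7 TPM in K97E cells, against 30.4 and 24.5 TPM in WT cells. The WT libraries were the highest and the lowest, and the groups overlapped. The mean was 27.0 ± 2.35 TPM in K97E cells and 27.4 ± 4.14 TPM in WT cells (SD, n = 2 each), with a log2 fold change of -0.07 (SE 0.15, limma adjusted p = 0.973). Epb41l4a had a log2 fold change of -0.09.

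The snoRNAs carried by these hosts are shorter than the fragments that mRNA libraries usually keep. Their genes were near 0, and the reason was not tested. The annotation places 10 genes under 350 bases inside Gas5, 8 inside Snhg1, 5 inside Snhg12 and 1 inside Epb41l4aos, all on the strand of the host. Those inside Gas5 summed to 1.20 and 1.25 TPM in K97E cells and 1.03 and 1.59 TPM in WT cells. Those inside Snhg1 summed to 0.162 and 0.351 TPM in K97E cells and 0.916 and 1.04 TPM in WT cells. Those inside Snhg12 summed to 0.320 and 0.139 TPM in K97E cells and 0.163 and 0.0267 TPM in WT cells. Gm23639, inside Epb41l4aos, was at 1.04 and 0.921 TPM in K97E cells and 0.554 and 0.980 TPM in WT cells, and no single such gene exceeded that first value in any library. Reads of unspliced host RNA in these intervals cannot be told apart from the small RNA.

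No gene of the wider family of snoRNA hosts passed the test. Of 23 listed, 20 were tested, 4 of them the hosts described above, and 0 were called higher and 0 lower. The 20 log2 fold changes were positive for 7 and negative for 13, with a median of -0.04. The smallest p-values were those of Snhg20, at 18.7 and 13.8 TPM in K97E cells and 20.6 and 18.2 TPM in WT cells (log2 fold change -0.32, limma adjusted p = 0.965), and Taf1d, which also encodes a factor of RNA polymerase I transcription, at 48.7 and 37.8 TPM in K97E cells and 57.1 and 45.9 TPM in WT cells (-0.31, adjusted p = 0.965). Of 11 genes for proteins that bind snoRNAs, 0 were called, 8 were positive and 3 negative, and the median was 0.08. Nop58, a core box C/D protein, had a log2 fold change of -0.19, and Nop10, a core box H/ACA protein, 0.11. Of 10 nonsense-mediated decay factors, 0 were called, 3 were positive and 7 negative, and the median was -0.03. Smg5, which binds phosphorylated Upf1, had a log2 fold change of 0.18.

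**Figure D4:**
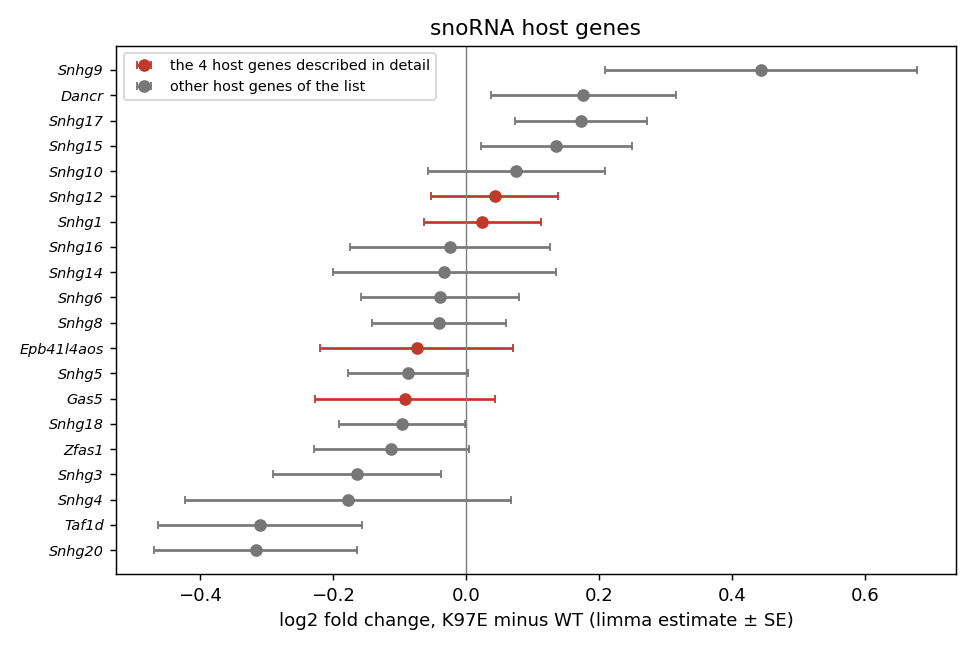
Log2 fold change (K97E minus WT, limma estimate ± SE) of the 20 tested snoRNA host genes, ordered by value. The 4 hosts described in detail lie between -0.09 and 0.04, inside the range of the list, which runs from -0.32 in Snhg20 to 0.44 in Snhg9, and none passed the test.

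The nearest measured genes of the hosts did not pass the test. Slc3a2, an amino acid transporter chain that starts 106 bases from Snhg1 on the opposite strand, had a log2 fold change of -0.07, and Wdr74, a ribosome assembly factor on its other side, 0.13. Zbtb37, whose span overlaps Gas5 on the opposite strand, was at 2.84 and 2.45 TPM in K97E cells and 2.44 and 2.47 TPM in WT cells (log2 fold change 0.04). No annotated exon of Zbtb37 overlaps an exon of Gas5. The kit marks strand but the recorded counting command holds no strand option. Whether unspliced reads of either gene were credited to the other was not tested. The only measured gene with an exon that overlaps Gas5 is ENSMUSG00002075950, on the same strand. It was at 0.648 and 0.651 TPM in K97E cells and 0.437 and 0.901 TPM in WT cells. Beyond Gas5, Rc3h1 had a log2 fold change of 0.08. Beside Snhg12, Taf12 and Trnau1ap had -0.14 and 0.17, and Nrep, the far neighbour of Epb41l4aos, 0.03.

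Kcnq1ot1 (ENSMUSG00000101609) is annotated as 1 exon of 93092 bases at chr7:142757195-142850286 on the minus strand. It was at 0.151 and 0.170 TPM in K97E cells, against 0.202 and 0.158 TPM in WT cells, the lowest of the 8 and below the minimum for the test. Because of its length this level stands for 741 and 789 estimated reads in K97E libraries and 798 and 729 in WT libraries. The groups overlapped, with a ratio of the mean TPM of 0.890. A fit with no minimum gave a log2 fold change of -0.06 (SE 0.08, limma adjusted p = 0.920), a value that the pseudocount of 0.5 TPM, larger than the level itself, draws towards 0.

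Of 14 listed genes of the Kcnq1ot1 domain, 10 were tested and 0 were called, with 6 positive and 4 negative log2 fold changes and a median of 0.04. Kcnq1, Cdkn1c, Phlda2 and Ascl2, which are among the genes silenced on the paternal allele, were below the minimum. Tssc4, a splicing-associated gene of the domain, was at 27.2 and 22.9 TPM in K97E cells and 18.4 and 21.2 TPM in WT cells (log2 fold change 0.27, limma adjusted p = 0.965). Osbpl5, a lipid transfer gene of the domain, was at 28.7 and 26.1 TPM in K97E cells and 20.8 and 25.2 TPM in WT cells (0.19). The nearest measured genes, Trpm5 and Slc22a18, had log2 fold changes of 0.09 and 0.08.

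Mirt1 (ENSMUSG00000097636, chr19:53431661-53453227, minus strand) was at 1.85 and 1.44 TPM in K97E cells, against 0.510 and 0.496 TPM in WT cells. Both K97E libraries were above both WT libraries, which is what the gene was picked for. The mean was 1.65 ± 0.29 TPM in K97E cells and 0.503 ± 0.010 TPM in WT cells (SD, n = 2 each), a ratio of 3.28, and the log2 fold change on the log2(scaled TPM + 0.5) scale, which understates changes of low genes, was 1.06. The level was low: it rests on 203 and 163 estimated reads in K97E libraries and 70.4 and 80.2 in WT libraries, and 88.4% of the tested genes were more abundant.

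Nearly all of the higher value came from 1 of the 6 annotated forms. ENSMUST00000180667 (1711 bases, 4 exons) was at 1.35 and 0.93 TPM in K97E cells and was listed at 0 in both WT libraries. It made up 73.0% and 64.1% of the gene in K97E cells. ENSMUST00000180489 (3261 bases, 10 exons), the other main form, was at 0.44 and 0.52 TPM in K97E cells and 0.51 and 0.50 TPM in WT cells, where the groups overlapped. GENCODE M21 and the Ensembl annotation of the files give both forms the same length.

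Exon by exon, the difference lay in the long exon of ENSMUST00000180667, 1331 bases at chr19:53432445-53433775. Its coverage was 8.05 and 5.46 reads per base in K97E libraries, or 107 and 72.6 estimated reads, and 0 in both WT libraries. The 95 bases at its 5′ end, chr19:53433681-53433775, are also an exon of ENSMUST00000180489, shown in lower case above, and as that exon they had a coverage of 3.57 and 10.95 in K97E libraries and 4.48 and 9.74 in WT libraries. WT reads were thus credited to this interval, but only through the other form.

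The exons that both forms or the 10-exon form alone use overlapped between the groups or were lower in K97E cells. Divided by the aligned gigabases of each library, the 143-base exon at chr19:53434772-53434914 was at 0.596 and 0.857 in K97E libraries and 0.527 and 1.31 in WT libraries. The 158-base exon at chr19:53435587-53435744 was at 0.948 and 0.611 in K97E libraries and 0.662 and 0.591 in WT libraries. The 112-base exon between them was at 0.976 and 0.928 in K97E libraries and 1.14 and 1.01 in WT libraries. Reads that the program credited to no annotated form are not in the values used here, so whether WT libraries held uncredited reads in the long exon was not tested.

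**Figure D5:**
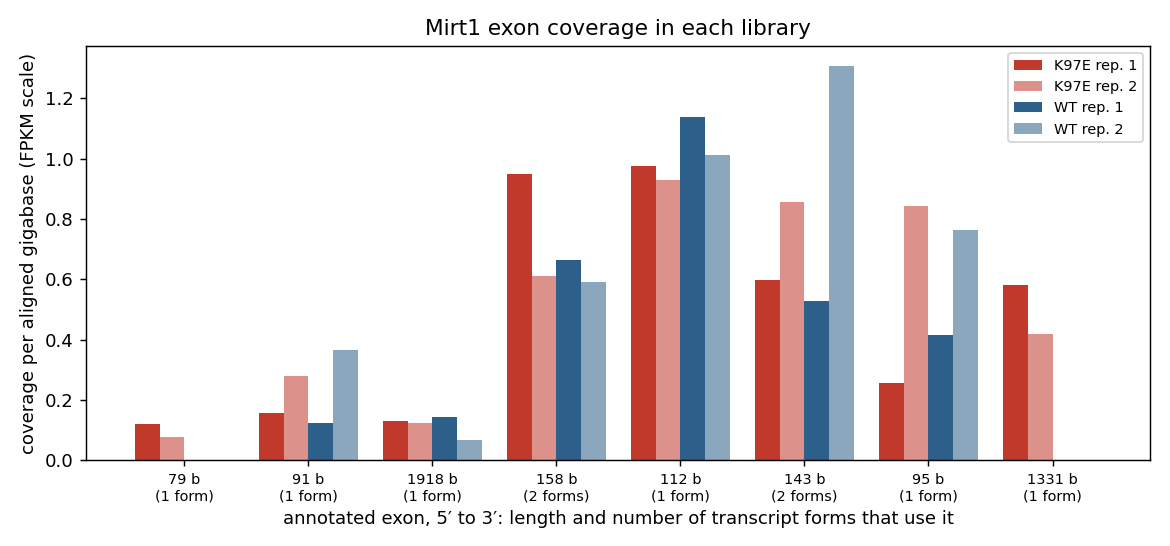
Coverage of the Mirt1 exons that reach 0.1 in any library, summed over the forms that use an exon and divided by the aligned gigabases of the library, ordered 5′ to 3′ and named by length in bases (b). The 1331-base exon has coverage in both K97E libraries and 0 in both WT libraries, as does the 79-base exon of the same form. That 79-base exon lies within the 91-base exon of the other form. The 91-base exon was at 0.157 and 0.279 in K97E libraries and 0.123 and 0.364 in WT libraries. The 143-base and 158-base exons overlap between the groups.

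No measured gene lay close to Mirt1. Smndc1, a splicing factor gene 52652 bases away, was at 57.3 and 59.4 TPM in K97E cells and 62.5 and 55.6 TPM in WT cells. Dusp5, a nuclear phosphatase of ERK 64313 bases away on the other side, was at 19.7 and 21.5 TPM in K97E cells and 22.3 and 19.1 TPM in WT cells. Both overlapped between the groups, with log2 fold changes of -0.07 and -0.06.

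Likeness of pattern was measured as the Euclidean distance between log2 levels over the 4 libraries, each centred on its mean, in a pool of 11940 genes. The 3 genes nearest to Mirt1 were Mir6988 at a distance of 0.315, Pdxp at 0.325 and Tg at 0.416, where a flat profile lay 1.07 away. Pdxp, which encodes pyridoxal phosphatase, was at 14.0 and 15.3 TPM in K97E cells and 7.35 and 7.07 TPM in WT cells. The thyroglobulin gene Tg was at 1.51 and 1.28 TPM in K97E cells and 0.753 and 0.551 TPM in WT cells, and Mir6988, a microRNA gene, at 2.15 and 1.86 TPM in K97E cells and 0.696 and 0.987 TPM in WT cells. For the tested RNAs the nearest gene was Igtp for Malat1 (0.0208), Fbxo44 for Neat1 (0.0194), Mccc1 for Gas5 (0.0133), Poglut3 for Snhg1 (0.0117), Eif2b1 for Snhg12 (0.00953) and Set for Epb41l4aos (0.0166). With 4 libraries and 11940 genes, a close match is easily found, and these distances are a description.

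A wider list of long noncoding RNAs gave the same count. Of 32 listed, 3 are RNAs described above: Malat1, Neat1 and Mirt1. With Mirt1 left aside 20 were tested, Malat1 and Neat1 among them, and 0 were called higher and 0 lower. Their log2 fold changes were positive for 4 and negative for 16, with a median of -0.14, where 49.5% of all tested genes were positive. Without Malat1 and Neat1, 18 remained, 4 positive and 14 negative. Mir155hg, the host transcript of the microRNA miR-155, was at 11.3 and 9.19 TPM in K97E cells, against 19.1 and 14.7 TPM in WT cells. Both K97E libraries were below both WT libraries, with a log2 fold change of -0.75 (SE 0.16, limma unadjusted p = 0.0045, adjusted p = 0.965). Such separation was found for 16.8% of all tested genes on scaled values. Mir155hg had the smallest p of the 20 and was the only one with an unadjusted p under 0.05, where 3.68% of all tested genes were. H19, an imprinted RNA abundant in myoblasts, was at 90.8 and 126 TPM in K97E cells and 142 and 136 TPM in WT cells, with a log2 fold change of -0.43 (SE 0.18, limma adjusted p = 0.965). In these bulk libraries, fewer cells that make an RNA and less of it per cell cannot be told apart.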

How the data were processed

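Libraries were grouped by the genotype label (2 of K97E lamin A, 2 of wild-type lamin A). Tools listed in the submitters' processing notes are FastQC, HISAT2, SAMtools, StringTie 2.1.7 and DESeq2, whose role is not given, on GRCm39; per the file headers, StringTie used Ensembl release 104, estimated no new transcripts and was given no strand option. The deposited values, in a single attribute column per file, are TPM, FPKM and coverage of 142434 transcripts and coverage of their exons; the files hold no read counts. The deposited TPM and FPKM are length-corrected, so a count test was not used. Estimated reads were computed as coverage times length divided by the read length of 100 bases. They are not whole, and no counting interval was computed.

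TPM was summed per gene and divided by median-of-ratios factors (1.04 and 1.00 in K97E, 0.98 and 0.98 in WT). Genes with a mean of at least 0.5 TPM (16304) were tested on log2(TPM + 0.5) with limma 3.58.1 (R 4.3.3, trended eBayes), adjusted over all of them, at a threshold of 0.05. Shares of forms were compared by exact permutation tests. The fit was also run on simulated data, but the outcome is not given here and no statement above rests on it. The labels number the replicates but state no pairing of the libraries, so no block was used. Deviations of same-numbered libraries from their group means had a correlation of -0.137. With 2 libraries per group this is a single value for both numbers and cannot settle whether they were paired. The genes and lists were chosen with earlier results of these data known. Named beside the 8 RNAs were their neighbours, the 2 genes of each list with the smallest p, and the nearest patterns, apart from some genes that are not reported here; of their forms, some with means of at least 1 TPM were singled out after their values were seen. Mirt1 got no p. Sequences came from RefSeq promoters (GRCm38.p6) and from GENCODE M21, where 70 of 70 transcripts of the 8 genes matched by identifier and length. The alternatives were another pseudocount, filter, scaling, model, FPKM, a single transcript per gene, a replicate block and each library left out.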

Additional observations from a re-analysis of the deposited data

How the results depend on the processing

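Under all 17 alternatives 0 of the tested RNAs passed the adjusted threshold, and their adjusted p-values stayed at 0.487 or above. The number at an unadjusted p under 0.05, 0 in the report, was 1 with voom (Neat1, log2 fold change -0.24, limma unadjusted p = 0.0404, adjusted p = 0.968) and ranged from 0 to 1 with each library left out. The count of genes called higher, 1 in the report, was 0 with no filter, 2 with voom, 4 with the top transcript alone, and 0 to 3 with a library left out (3 without WT replicate 1). The count called lower, 0 in the report (414 at an unadjusted p under 0.05), was 1 with TPM as deposited, 1 without the trend, 3 with voom, and 0 to 9 with a library left out (9 without WT replicate 1). With the replicate number as a block 0 genes were called higher. With crossed pairing, chosen after seeing the data and not among the 17 alternatives, 3 were called higher and 27 lower. Results of the RNAs under crossed pairing are not given. In the labels the libraries share only a number. With a library left out, the log2 fold change ranged from -0.40 to 0.037 for Neat1, -0.22 to 0.038 for Gas5, -0.031 to 0.082 for Snhg1, -0.027 to 0.11 for Snhg12 and -0.23 to 0.078 for Epb41l4aos, so each of these turned in sign, and from -0.27 to -0.026 for Malat1, which kept its sign. Snhg1 also turned with voom (-0.030) and was 0.35 (SE 0.36) for its top transcript alone, and the cause was not tested. With a library left out, the difference in share ranged from -4.78 to 10.75 points for Neat1, -2.73 to -0.45 for Gas5, -4.14 to 18.8 for Snhg1, and -4.71 to 4.76 for Snhg12, with -2.12 without K97E replicate 1. Mirt1's log2 fold change was 1.48 with a pseudocount of 0.1, 0.79 with 1, 0.70 on FPKM and 1.68 for its top transcript alone, and could not be computed at a mean of at least 5 TPM. On TPM as deposited 63.3% of genes were higher in K97E cells, against 49.5% after scaling, with the median moved to 0.05. The level of Kcnq1ot1 lay below the TPM minimum and the pseudocount, while it rests on 729 to 798 estimated reads per library. Why the small RNA genes inside the hosts were near 0 was not tested.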
